A study of Mus musculus with 6 samples.

Results

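The 9 genes examined here mark homeostatic microglia, the resident macrophages of brain tissue in their surveying state. They are Cx3cr1, P2ry12, P2ry13, Tmem119, Csf1r, Sall1, Siglech, Gpr34 and Aif1, taken by symbol as 9 of the 54532 rows of a gene expression table. RNA sequencing had been run on hippocampus of 3 WT and 3 TG mice. TG mice carried a CRISPR/Cas9 knock-in of the G82R and L85P substitutions in Slc1a2, which encodes the astrocyte glutamate transporter GLT-1, as a germline change on a C57BL/6N background, and WT littermates served as controls in the study. Whether the sequenced TG mice carried 1 or 2 altered copies, and the age of the mice, are not given in the sources used here. No drug or other treatment separated the groups, and the question was whether genotype changed the level of these genes.

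Homeostatic microglia read their surroundings through receptors for nucleotides (P2RY12, P2RY13), for the neuronal chemokine fractalkine (CX3CR1) and for the lipid lysophosphatidylserine (GPR34). They depend for survival on CSF1R, and the transcription factor SALL1 together with TGF-beta signalling keeps their identity. When microglia react to injury, several of these genes, P2ry12 and Tmem119 among them, are known to be turned down while lysosomal and lipid-handling genes are turned up.

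The study chose primer pairs for quantitative PCR in Csf1r, Cx3cr1, Tmem119 and P2ry12, and the stretches they amplify show which part of each transcript that assay reads. The Csf1r pair was not analysed here. Both primers of the other pairs matched the GENCODE M21 transcripts exactly and together hit 1 gene each. The Cx3cr1 product lies at chr9:120051283-120051468 (GRCm38, minus strand), in exon 3 of 3 of its transcript, the Tmem119 product at chr5:113795147-113795233 (minus strand), in exon 2 of 2, and the P2ry12 product at chr3:59217930-59218126 (minus strand), in exon 4 of 4. All 3 products lie wholly in coding sequence and inside 1 exon, and are 186, 87 and 197 bases long. They are written 5′ to 3′ along the mRNA, with capitals for the forward primer and for the reverse complement of the reverse primer.
Cx3cr1: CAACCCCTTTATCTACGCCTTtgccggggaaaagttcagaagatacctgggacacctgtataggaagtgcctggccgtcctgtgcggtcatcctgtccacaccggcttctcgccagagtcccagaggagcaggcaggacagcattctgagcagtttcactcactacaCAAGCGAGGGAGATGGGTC
Tmem119: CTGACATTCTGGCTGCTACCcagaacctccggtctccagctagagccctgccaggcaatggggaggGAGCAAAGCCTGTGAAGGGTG
P2ry12: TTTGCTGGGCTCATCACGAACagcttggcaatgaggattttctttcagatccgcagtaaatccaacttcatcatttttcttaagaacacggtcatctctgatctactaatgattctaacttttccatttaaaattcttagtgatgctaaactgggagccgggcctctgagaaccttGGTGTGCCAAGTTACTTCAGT

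The 250 bases upstream of the RefSeq start (GRCm38.p6) were searched for GAGGAA, the core bound by PU.1, the main transcription factor of macrophages, on both strands (TTCCTC on the other). Windows were read for 6 of the 9 genes, and 2 of them held the letters, P2ry13 (chr3:59210883-59211132, minus strand) 48 bases before its start and Aif1 (chr17:35176053-35176302, minus strand) 7 bases before its start. Of all 27025 genes with a window, 25.9% held them, the share against which the 2 of 6 are read. The 2 windows are shown 5′ to 3′ with the match in capitals.
P2ry13: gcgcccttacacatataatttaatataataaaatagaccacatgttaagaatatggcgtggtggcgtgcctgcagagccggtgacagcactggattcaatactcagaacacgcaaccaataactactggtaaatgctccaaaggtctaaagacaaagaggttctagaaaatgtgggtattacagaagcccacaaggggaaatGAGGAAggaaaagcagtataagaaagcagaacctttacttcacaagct
Aif1: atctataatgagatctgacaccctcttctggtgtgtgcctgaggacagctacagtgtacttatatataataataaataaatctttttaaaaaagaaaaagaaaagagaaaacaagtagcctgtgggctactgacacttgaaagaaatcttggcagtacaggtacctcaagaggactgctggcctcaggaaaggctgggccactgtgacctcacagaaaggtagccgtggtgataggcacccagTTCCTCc

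All 9 genes were detected in every library, with 55 to 2032 reads per gene and library from 16081281 to 18751057 reads on genes. Levels are FPKM, read counts scaled to gene length and to a divisor of each library, so that they can be set side by side between genes. The divisor estimated for TG1, 15824455, lay below its 16116117 reads on genes. In WT3 it was 18722180 against 18751057 reads, and elsewhere it lay above them. What this divisor counts was not resolved. Slc1a2, the altered gene, read 202, 200 and 177 FPKM in WT and 222, 207 and 217 FPKM in TG, and such levels cannot show the base changes themselves. Markers of the tissue were present in all libraries, with Slc17a7 of excitatory neurons at 237 to 322 FPKM and Aldoc of astrocytes at 249 to 315 FPKM. Libraries TG1 and TG2 stood apart, since Ttr, the main transcript of the choroid plexus, read 1168 and 3705 FPKM there against 49.8 to 73.0 FPKM in the other 4 libraries. Summed over 16 choroid plexus markers, the level was 1225 and 3873 FPKM in these libraries and 58.9 to 84.0 FPKM elsewhere. Summed over their marker lists, blood monocyte and neutrophil genes came to 7.08 to 23.0 FPKM, T and NK cell genes to 1.27 to 3.42 FPKM, B cell genes to 0.244 to 0.984 FPKM and meningeal genes to 13.01 to 29.0 FPKM. Neuronal (602 to 692 FPKM), astrocyte (648 to 693 FPKM) and endothelial genes (67.3 to 80.3 FPKM) varied little, and none of these 7 lists separated the groups in its sum.

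In level the 9 genes fell into 3 tiers. Csf1r was highest at 20.7 ± 1.87 FPKM (SD over all 6 libraries), 1.83 times the next gene. P2ry12 (11.4 ± 1.31 FPKM), Tmem119 (11.2 ± 1.79 FPKM) and Cx3cr1 (10.5 ± 1.05 FPKM) followed, with overlapping ranges, so that their order among themselves was not resolved. The third tier held Sall1 (4.68 ± 0.732 FPKM), Gpr34 (4.55 ± 0.906 FPKM), Siglech (4.34 ± 0.646 FPKM), P2ry13 (3.97 ± 0.648 FPKM) and Aif1 (2.91 ± 0.697 FPKM), with neighbours whose ranges overlapped. Within each of the 6 libraries, though, Siglech lay above P2ry13 and P2ry13 above Aif1. The highest and lowest gene means differed 7.14-fold.

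Between genotypes the 9 genes differed little. In limma on log2(FPKM + 0.1), 1 of 9 passed an unadjusted p of 0.05 (Csf1r, higher in TG), where 5.91% of the 20952 genes tested did. None of the 9 passed an adjusted p of 0.05 (Benjamini-Hochberg over all genes tested), and over all genes 0.00955% did. Log2 fold changes of TG over WT were above 0 for 5 genes and below 0 for 4, with a median of 0.11 against a median over all genes tested of -0.00197. WT and TG libraries did not overlap for 1 of the 9 genes, again Csf1r, and for 12.1% of all genes tested. In bulk tissue, fewer microglia and less of a transcript per microglial cell cannot be told apart.

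**Figure D1:**
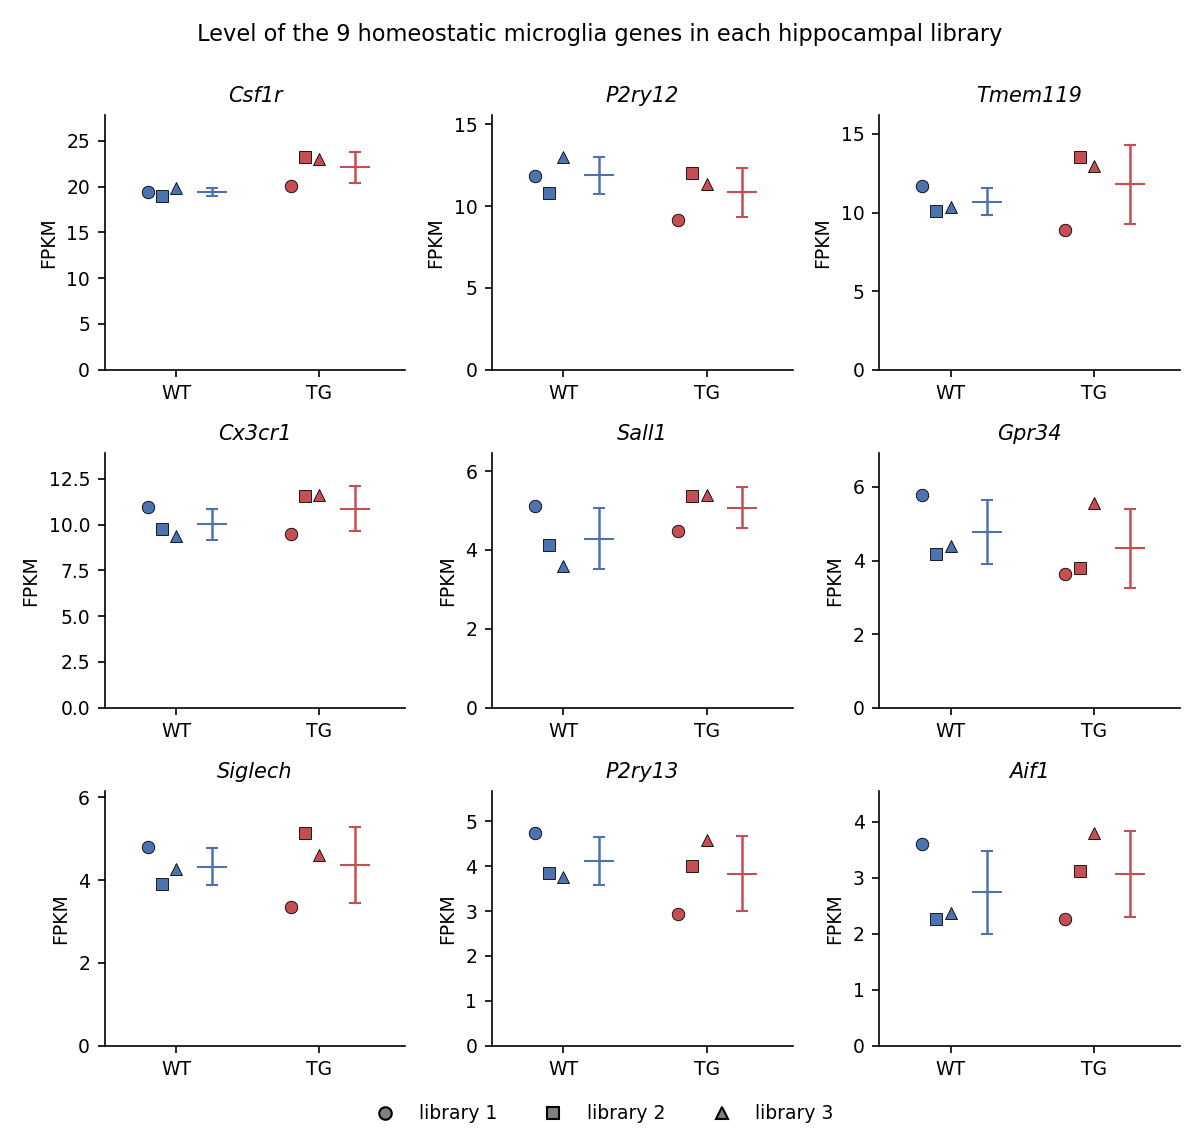
FPKM (y axis, from 0) of each of the 9 genes in the 3 WT (blue) and 3 TG (red) libraries, with symbol shape giving the library number and bars the group mean ± SD. Only in the Csf1r panel do all TG points lie above all WT points, at 20.1 to 23.2 FPKM against 18.9 to 19.9 FPKM.

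Csf1r, the receptor tyrosine kinase for CSF1 and IL-34 on which microglia depend (chromosome 18, 61105572 to 61132149, plus strand), read 19.4, 18.9 and 19.9 FPKM in WT libraries 1 to 3 (WT1, WT2, WT3) and 20.1, 23.2 and 23.0 FPKM in TG libraries 1 to 3. TG1 lay just above the highest WT library, and TG2 and TG3 lay further up. The log2 fold change was 0.19 (SE 0.0765, 95% interval 0.0058 to 0.36), a 1.14-fold difference with an unadjusted p of 0.0446 and an adjusted p of 0.786 in limma. Leaving out WT1, WT2, TG2 or TG3 in turn gave unadjusted p-values from 0.0896 to 0.127, and without TG1 the unadjusted p was 0.00554, at a log2 fold change of 0.25. With TG3 as the only TG library, that is without the 2 libraries high in choroid plexus genes, the log2 fold change was 0.25, the lone TG library being assumed to vary as the WT libraries do. Its last exon overlaps the end of Hmgxb3 on the opposite strand, which read 9.15, 8.59 and 7.26 FPKM in WT and 11.1, 9.01 and 9.65 FPKM in TG, and reads on shared bases could not be separated.

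The ligands of CSF1R did not pass the test. Csf1 read 5.79, 5.38 and 5.31 FPKM in WT and 6.04, 6.01 and 5.82 FPKM in TG, a log2 fold change of 0.12 (unadjusted p = 0.178 and adjusted p = 0.789 in limma). Its TG libraries all lay above its WT libraries, by little, and 12.1% of all genes tested separated in either direction. Il34, the ligand made mainly by neurons, read 19.9 to 22.8 FPKM in WT and 17.5 to 22.2 FPKM in TG, with a log2 fold change of -0.09 (limma adjusted p = 0.849).

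Sall1 encodes a zinc finger transcription factor that in adult brain is largely confined to microglia (chromosome 8, 89027235 to 89044162, minus strand). It read 5.12, 4.13 and 3.59 FPKM in WT and 4.48, 5.36 and 5.38 FPKM in TG. It had the largest positive log2 fold change of the 9 genes, 0.25 (SE 0.147, 95% interval -0.09 to 0.59, limma adjusted p = 0.789), and its groups overlapped because WT1 lay above TG1. The log2 fold change was 0.38 without WT1 and 0.13 without WT3. The macrophage transcription factors Spi1 (PU.1) and Irf8 were low, at 1.49 to 2.30 FPKM and 0.659 to 1.14 FPKM over all libraries, with log2 fold changes of 0.20 and 0.14 (limma adjusted p of 0.789 and 0.880).

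TGF-beta signalling sustains Sall1 and P2ry12. Of the ligand and partner list, 1 of 14 genes tested had an unadjusted p under 0.05, a share near the 5.91% of all genes tested. That gene encodes a TGF-beta receptor. Tgfbr2, the type II receptor, read 3.53, 2.50 and 2.22 FPKM in WT and 3.54, 3.79 and 3.69 FPKM in TG, with a log2 fold change of 0.43 (SE 0.170, unadjusted p = 0.0382 and adjusted p = 0.786 in limma). WT1 lay close to TG1, and WT2 and WT3 lay lower. The ligand Tgfb1 read 1.19 to 1.50 FPKM in WT and 1.44 to 1.70 FPKM in TG, with a log2 fold change of 0.25 (limma adjusted p = 0.789). Tgfbr1, Smad3 and Nrros of this list had log2 fold changes of 0.13, 0.04 and -0.19 (limma adjusted p 0.789, 0.924 and 0.789). Of the 14 ligands and partners tested, 9 had a positive and 5 a negative log2 fold change. TG lay wholly above WT for 2 of the 14 (Csf1 and Tgfbr2) and wholly below for 2 (Abhd16a and Nrros). Over all genes tested, 12.1% separated in either direction.

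Cx3cr1 (chromosome 9, 119901616 to 120069879, minus strand) encodes the receptor through which microglia sense fractalkine on neurons. It read 11.0, 9.74 and 9.35 FPKM in WT and 9.47, 11.6 and 11.6 FPKM in TG, so that TG2 and TG3 lay above all WT libraries and TG1 among them. The log2 fold change was 0.11 (SE 0.107, 95% interval -0.14 to 0.37, limma adjusted p = 0.796), and leaving out 1 library gave 0.06 (without TG3) to 0.21 (without TG1). Its ligand Cx3cl1 was far more abundant per length, at 127 to 134 FPKM in WT and 128 to 146 FPKM in TG (log2 fold change 0.07, limma adjusted p = 0.840). The long annotated span of Cx3cr1 also covers other genes, of which Gorasp1 (6.48 to 8.86 FPKM), Wdr48 (5.16 to 6.69 FPKM) and Csrnp1 (3.75 to 5.53 FPKM) were the most abundant.

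The 2 ADP receptors of the set lie next to each other, and both had fold changes below 0. P2ry12 (chromosome 3, 59216272 to 59262871, minus strand), which steers microglial processes towards ATP and ADP, read 11.9, 10.8 and 12.99 FPKM in WT and 9.13, 12.03 and 11.3 FPKM in TG. TG1 lay below every WT library and the other TG libraries among the WT values, and the log2 fold change was -0.14 (SE 0.122, 95% interval -0.42 to 0.15, limma adjusted p = 0.789). Without TG1 it was -0.02. P2ry13 (chromosome 3, 59207892 to 59210882, minus strand) read 4.73, 3.84 and 3.76 FPKM in WT and 2.92, 3.99 and 4.58 FPKM in TG. Again TG1 was lowest, and the log2 fold change of -0.11 (SE 0.177, limma adjusted p = 0.877) became 0.06 without TG1 and 0.16 without both libraries high in choroid plexus genes.

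Both genes lie inside Med12l, a Mediator subunit gene on the opposite strand that read 3.42, 3.31 and 1.83 FPKM in WT and 3.65, 3.13 and 3.45 FPKM in TG. Whether reads were counted by strand is not given in the sources used here, so reads of Med12l and of the 2 receptors on shared exonic bases could not be separated. P2ry14, the next receptor gene in the same stretch, was scarcely detected at 0.154 to 0.230 FPKM. Entpd1 (CD39), the surface enzyme that breaks down ATP and ADP, read 2.52 to 2.85 FPKM in WT and 2.54 to 3.40 FPKM in TG (log2 fold change 0.16, limma adjusted p = 0.789).

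Gpr34, the lysophosphatidylserine receptor (chromosome X, 13632089 to 13640858, plus strand), read 5.77, 4.18 and 4.40 FPKM in WT and 3.63, 3.79 and 5.56 FPKM in TG. TG1 and TG2 lay below all WT libraries and TG3 near the highest one. The log2 fold change was -0.15 (SE 0.193, 95% interval -0.61 to 0.30, limma adjusted p = 0.850), and with TG3 as the only TG library it was 0.23. Leaving out 1 library gave -0.34 (without TG3) to -0.0125 (without WT1). Gpr34 lies inside Cask on the opposite strand, and Cask read 6.19 to 7.02 FPKM with no separation of the groups. Abhd16a, which makes the lipid, read 21.5 to 22.0 FPKM in WT and 19.1 to 20.4 FPKM in TG (log2 fold change -0.13, limma adjusted p = 0.786), and Abhd12, which degrades it, read 104 to 117 FPKM in WT and 98.8 to 111 FPKM in TG.

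Siglech encodes a receptor of the Siglec family that signals through the adaptor DAP12 (chromosome 7, 55768178 to 55778925, plus strand). It read 4.80, 3.92 and 4.26 FPKM in WT and 3.34, 5.13 and 4.62 FPKM in TG, with a log2 fold change of -0.01 (SE 0.167, 95% interval -0.40 to 0.39, limma adjusted p = 0.996). The lowest and the highest value were both in TG libraries. Tyrobp, which encodes DAP12, showed the same low library more strongly, at 17.6, 13.8 and 15.2 FPKM in WT and 7.67, 18.6 and 16.9 FPKM in TG (log2 fold change -0.21, SE 0.311, limma adjusted p = 0.874).

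Tmem119, a membrane protein used as a marker of resident microglia (chromosome 5, 113793729 to 113800516, minus strand), read 11.7, 10.1 and 10.3 FPKM in WT and 8.90, 13.5 and 12.96 FPKM in TG. TG1 lay below and TG2 and TG3 above every WT library, and the log2 fold change was 0.12 (SE 0.161, 95% interval -0.26 to 0.50, limma adjusted p = 0.858). Without TG1 the log2 fold change was 0.31 (unadjusted p = 0.0156 in limma), without TG2 it was 0.00956 and without TG3 0.04. Aif1, which encodes the calcium-binding protein IBA1 used to stain microglia (chromosome 17, 35170991 to 35176068, minus strand), read 3.60, 2.26 and 2.37 FPKM in WT and 2.27, 3.13 and 3.79 FPKM in TG. It had the widest error of the 9 genes, with a log2 fold change of 0.15 (SE 0.236, 95% interval -0.40 to 0.71, limma adjusted p = 0.876), from 55 to 105 reads per library.

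**Figure D2:**
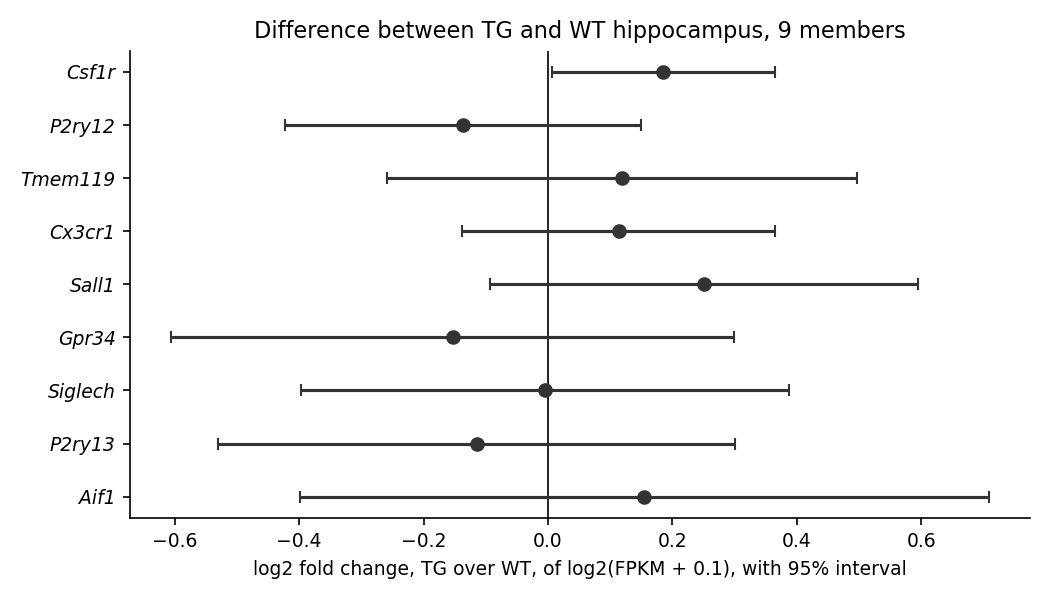
Log2 fold change of TG over WT (x axis, points) for each of the 9 genes with the 95% interval from limma on log2(FPKM + 0.1), 3 libraries per group. The interval of Csf1r lies above 0, from 0.0058 to 0.36, and those of the other 8 genes hold 0.

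The spread between TG libraries was wider than the difference between the genotypes. Taking each gene's log2(FPKM + 0.1) minus its WT mean, the median over the 9 genes came to 0.15, -0.09 and -0.10 in the WT libraries in order of number, and to -0.26, 0.21 and 0.23 in the TG libraries. TG1 was the lowest of all 6 libraries for 5 genes, namely P2ry12, Tmem119, Gpr34, Siglech and P2ry13, and lay below all 3 WT libraries for the same 5. In TG2 and in TG3, 5 genes lay above all WT libraries. The summed level of the 9 genes was 77.9, 67.9 and 70.9 FPKM in WT and 64.3, 81.7 and 82.8 FPKM in TG.

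TG1 also had the lowest levels of oligodendrocyte genes, which stood at a median of -0.66 on the same scale there, against -0.20 and -0.07 in TG2 and TG3 and -0.22 to 0.16 in WT. Choroid plexus genes stood at 3.27 in TG1, 4.76 in TG2 and -0.04 in TG3. TG2, with the highest choroid plexus level, and TG3, with a level like that of WT, had nearly the same median over the 9 genes. Single genes did not all do so. Gpr34 stood at -0.31 in TG2 and 0.23 in TG3 and Aif1 at 0.21 and 0.48, whereas Csf1r stood at 0.26 and 0.25. The part of these library differences in the levels of the 9 genes was not tested beyond the values given without those libraries.

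**Figure D3:**
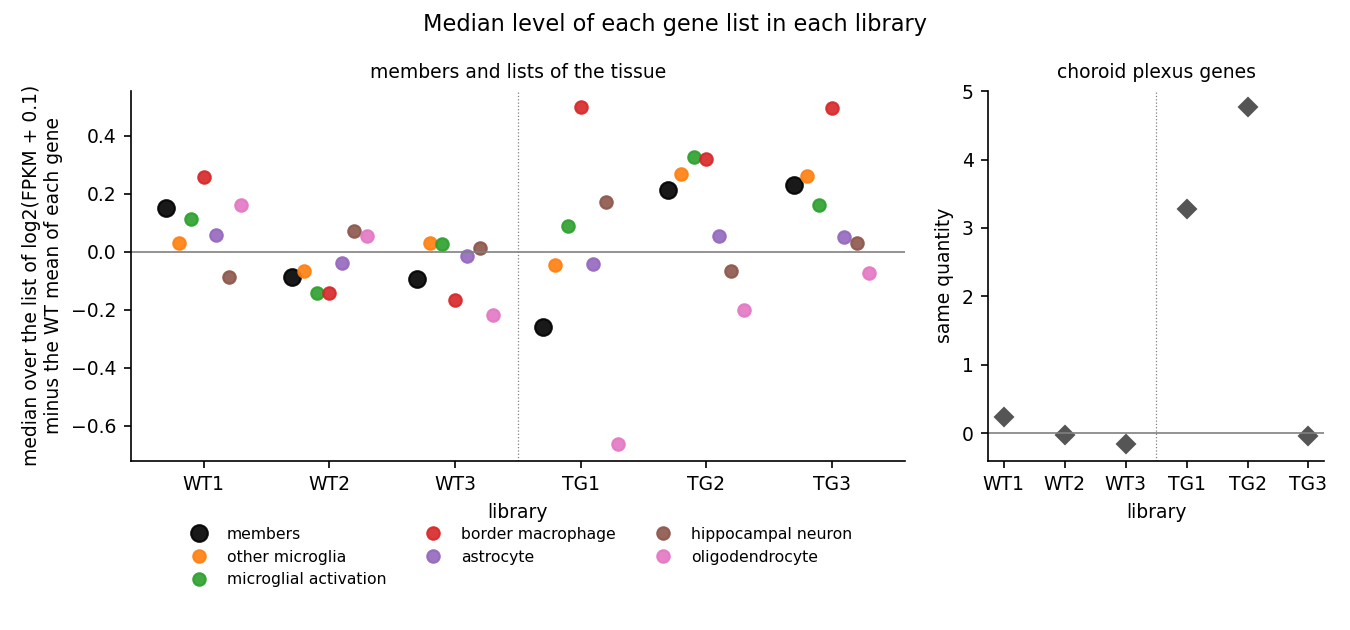
Median over each gene list of log2(FPKM + 0.1) minus the WT mean of each gene (y axis), for each of the 6 libraries (x axis), with the 9 genes in black, 6 other lists in colour and choroid plexus genes at right on a wider scale. The 9 genes stand at -0.26 in TG1 and at 0.21 and 0.23 in TG2 and TG3.

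A further 30 microglial genes outside the set also had their highest medians in TG2 and TG3, but TG1 lay within their WT range. Their median on the same scale was 0.03, -0.07 and 0.03 in WT and -0.05, 0.27 and 0.26 in TG, and the median log2 fold change was 0.16, with 24 values above 0 and 6 below. WT and TG libraries did not overlap for 3 of these 30 genes, against 12.1% of all genes tested. An unadjusted p under 0.05 was found for 2 of the 30, a share near the 5.91% of all genes tested. Of these, Trem2, the lipid-sensing receptor that signals through DAP12, read 2.89, 2.79 and 2.62 FPKM in WT and 3.27, 3.33 and 3.39 FPKM in TG (log2 fold change 0.26, SE 0.0943, unadjusted p = 0.0274 and adjusted p = 0.786 in limma). For Trem2, TG1 stood with the other TG libraries above all WT libraries, unlike in the 5 genes of the set that were lowest there. The most abundant of the 30, Ctss, a lysosomal protease, read 42.3 to 55.3 FPKM in WT and 39.5, 76.5 and 64.2 FPKM in TG.

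Of 21 genes linked to microglial activation, 18 were tested and 1 had an unadjusted p under 0.05, a share near the 5.91% of all genes tested. This was Lyz2, the macrophage lysozyme, at 10.4, 5.69 and 7.18 FPKM in WT and 8.79, 13.8 and 16.8 FPKM in TG (log2 fold change 0.75, SE 0.282, unadjusted p = 0.0323 and adjusted p = 0.786 in limma). The median log2 fold change of the 18 was 0.16, with 15 values above 0. Apoe, the most abundant and also made by astrocytes, read 730 to 879 FPKM in WT and 772 to 851 FPKM in TG. Among inflammatory cytokines, Il1b read 0.0585 to 0.196 FPKM in all libraries, and Il6, Tnf and Ifng were under the mean of 0.1 FPKM needed for testing. The log2 fold change of Il1b was -0.11, with a 95% interval of -1.11 to 0.90, so a change within that interval was not resolved at this depth.

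Border macrophages of the meninges, perivascular spaces and choroid plexus share Csf1r, Cx3cr1 and Aif1 with microglia, so their own markers were read beside the set. The summed level of 11 such markers was 6.63, 4.96 and 5.09 FPKM in WT and 7.73, 6.78 and 7.49 FPKM in TG, with no overlap of the groups. How often sums of such lists do so was not computed. For single markers, the groups did not overlap in 4 of the 10 tested, against 12.1% of all genes tested. Of these 4, Siglec1, Ms4a7 and Folr2 averaged 0.0625, 0.0722 and 0.0233 FPKM in WT and 0.203, 0.179 and 0.191 FPKM in TG. They reached the mean of 0.1 FPKM needed for testing only through TG. The 4 of 10 is therefore no result about these markers, and the same genes enter the median given next. Of the 10 tested, 9 had a log2 fold change above 0, with a median of 0.37, and 1 had an unadjusted p under 0.05, against 5.91% of all genes tested. This was Stab1, a scavenger receptor, at 1.99, 2.01 and 1.53 FPKM in WT and 2.53, 2.22 and 2.30 FPKM in TG (log2 fold change 0.34, SE 0.144, unadjusted p = 0.0476 and adjusted p = 0.786 in limma). Their part in the Csf1r difference was not tested.

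**Figure D4:**
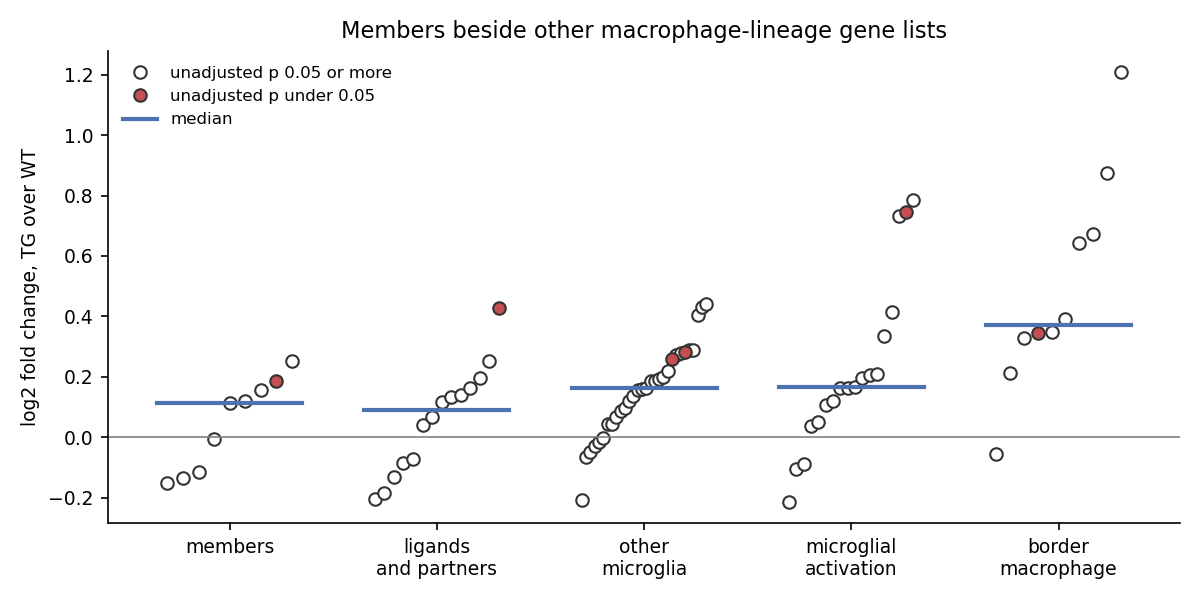
Log2 fold change of TG over WT (y axis) for the 9 genes and 4 other lists (x axis), 1 point per gene tested, red where the unadjusted p was under 0.05, with the list's median as a blue line. The medians are 0.11 for the 9 genes, 0.09 for ligands and partners, 0.16 for other microglial genes, 0.16 for activation genes and 0.37 for border macrophage genes.

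To set the genes against other microglial genes of the same library, each was also read relative to the median deviation of the 30 other microglial genes there, a comparison chosen after the values had been seen. That median was itself higher in TG2 and TG3 (0.27 and 0.26) than in WT (-0.07 to 0.03). Subtracting it lowers the TG2 and TG3 values of any gene. On this scale 7 of the 9 genes were lower in TG on average, a count for which the share over all genes was not computed. P2ry12 was the gene whose groups lay apart, where 16.2% of all genes tested did, so 1 of 9 is near that background. It stood at -0.03, -0.07 and 0.10 in WT and at -0.32, -0.25 and -0.32 in TG. The mean difference was -0.30 on the log2 scale, against a log2 fold change of -0.14 before the subtraction. TG1 and TG3 stood at nearly the same level, and the part of choroid plexus content in these values was not tested. Csf1r stood at -0.03, 0.03 and 0.00390 in WT and at 0.10, -0.01 and -0.02 in TG, so that its groups overlapped. With that median as a covariate in limma, P2ry12 had a log2 fold change of -0.30 (unadjusted p = 0.0111 and adjusted p = 0.505 in limma) and Csf1r one of 0.10 (unadjusted p = 0.185). In that fit 1 of the 9 genes and 8.67% of all genes had an unadjusted p under 0.05.

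**Figure D5:**
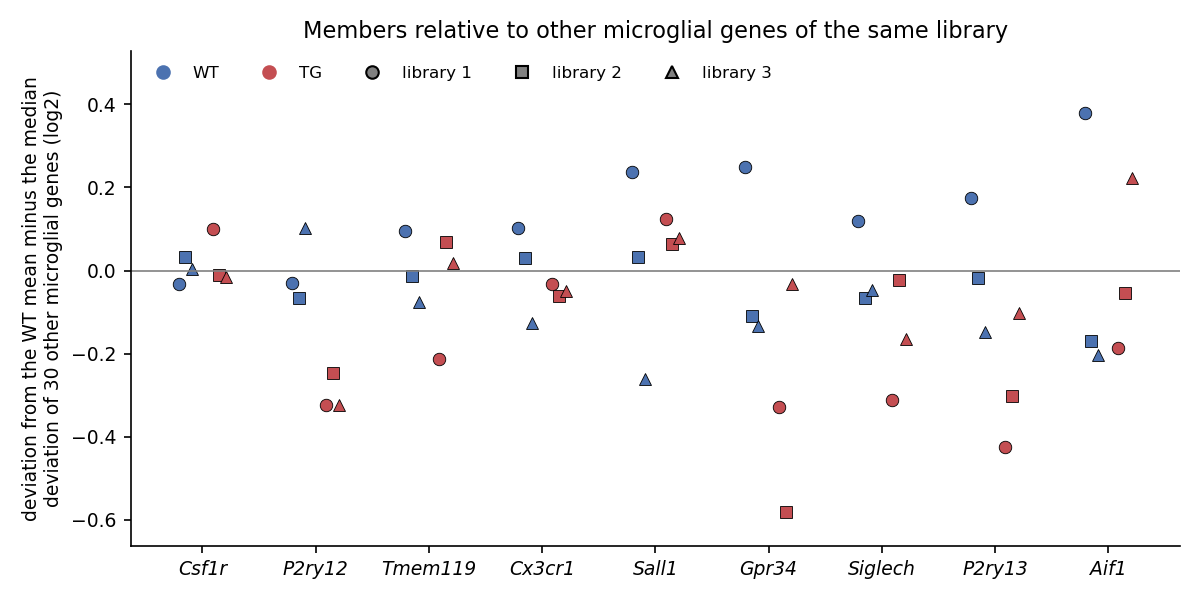
Deviation of each gene's log2(FPKM + 0.1) from its WT mean, minus the median deviation of 30 other microglial genes in the same library (y axis), for the 9 genes (x axis) in WT (blue) and TG (red), with symbol shape giving the library number. P2ry12 stands between -0.32 and -0.25 in the TG libraries and between -0.07 and 0.10 in WT, and the groups of the other 8 genes overlap.

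Genes of the set were also set against each other as ratios within a library. Of the 36 pairs, examined after the values had been seen, 9 (25.0%) gave ratios whose groups did not overlap, where 13.1% of all pairs among 13218 genes did. The 36 pairs share 9 genes, so they are not independent. P2ry12 was in 3 of the 9 pairs. Csf1r exceeded P2ry12 1.64, 1.76 and 1.53 times in WT and 2.20, 1.93 and 2.03 times in TG, and P2ry12 exceeded Sall1 2.32, 2.61 and 3.62 times in WT and 2.04, 2.24 and 2.10 times in TG. P2ry13 was in 4 of the pairs, among them that with Tmem119, which exceeded it 2.47, 2.62 and 2.75 times in WT and 3.04, 3.38 and 2.83 times in TG. With 3 libraries per group an exact permutation test of a single ratio cannot go below a two-sided p of 0.1, which these ratios reach.

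The genes whose profile over the 6 libraries was most like the mean standardised profile of the set were Prim1 (Pearson r 0.973), Rfc4 (0.969), Lag3 (0.965), Emp3 (0.962) and Cmc2 (0.958), out of 11908 protein-coding genes compared. Lag3, an immune receptor gene, read 3.62, 2.70 and 3.04 FPKM in WT and 1.95, 4.55 and 5.07 FPKM in TG, with the same low TG1. Among these genes 41 (0.344%) had an r of at least 0.9, and 1 of the 26 other microglial genes compared did. These likenesses rest on 6 libraries that differ in depth and in choroid plexus and oligodendrocyte content, and are a description.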

How the data were processed

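Hippocampal RNA of 3 WT and 3 TG mice was sequenced and counted per gene with HTSeq, and the authors deposited FPKM, computed from those counts and gene length, each library in its own column and none pooled. The labels name an RNeasy and a SMARTer kit, the methods Trizol and a NEBNext kit. The aligner is not given in the sources used here. The submitters' processing notes name GRCm38 and mm10, and 53499 of 54409 matched gene IDs had the same coordinates in GENCODE M21, Csf1r having a different start. FPKM multiplied by gene length and by a divisor estimated for each library gave whole reads for 100% of values (tolerance 0.05).

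The 20952 genes whose FPKM averaged 0.1 or more were tested with limma 3.58.1 (R 4.3.3, lmFit and eBayes with a variance trend) on log2(FPKM + 0.1), two-sided, with Benjamini-Hochberg adjustment at 0.05. The pseudocount understates fold changes of low genes. The labels do not tie libraries to separate litters, so p-values measure the spread between these libraries. The 9 genes and all gene lists were chosen with earlier results of these data known. Named beside the 9 genes were the most abundant gene and that with the smallest p of a list, ligands and partners, overlapping genes and the 5 most alike profiles. The values of 1 gene that this rule names are not reported here. For lists that bear little on the 9 only sums are given. Trem2, P2ry14, Entpd1, Abhd12, Abhd16a, Tgfbr1, Smad3, Nrros, Siglec1, Ms4a7, Folr2 and the cytokines were named after their values were seen. Alternatives were other pseudocounts, filters and scalings, limma-voom on recovered reads, a replicate block, choroid plexus and microglial covariates, and leaving out libraries.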

Additional observations from a re-analysis of the deposited data

How the results depend on the processing

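None of the 9 genes passed an adjusted p of 0.05 in any of the 18 alternatives. Csf1r, P2ry12 and Sall1 kept the sign of their fold change in all of them. Csf1r ranged from 0.10 to 0.25 on the log2 scale with unadjusted limma p from 0.00554 to 0.185, and passed p under 0.05 in 8 of 18. The count of genes past an unadjusted p of 0.05 was 1 as reported and 0 after dropping genes that averaged under 1 FPKM, with no variance trend, with limma-voom on recovered reads and with the choroid plexus score as covariate. Leaving out 1 library at a time gave counts from 0 (without WT2, TG2 or TG3) to 2 (without TG1), and without WT1 the 1 gene was Sall1 in place of Csf1r. The replicate block, with the replicate number in the labels as a block, gave a count of 0 and a Csf1r p of 0.0700. Same-numbered libraries correlated in their deviations at only 0.0125, 0.0434 and 0.00314, so the numbers were not taken to pair mice.

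The median log2 fold change of the 9 genes was -0.12 with the median of other microglial genes as covariate, where Tmem119 was -0.12, Aif1 -0.11 and Cx3cr1 -0.00499, all reversed. It ranged from -0.01 to 0.21 when 1 library was left out. With the choroid plexus score as covariate Gpr34 was 0.14 and P2ry13 0.0103. Without TG1 and TG2 Gpr34 was 0.23, P2ry13 0.16 and Siglech 0.10, and Siglech was 0.0293 after rescaling to TPM, which moved the median of all genes to 0.03. Leaving out 1 library gave -0.00972 to 0.36 for Aif1, -0.25 to 0.0628 for P2ry13 and -0.13 to 0.17 for Siglech. The cause of these changes was not tested. Aif1 had the fewest reads of the 9 genes, 55 in its lowest library.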
